A study of Mus musculus with 12 samples.

Results

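The aquaporins measured here are 8 mouse genes of the water channel family, Aqp1, Aqp2, Aqp3, Aqp4, Aqp6, Aqp7, Aqp8 and Aqp11, out of 27597 gene names on the array. Their probes were found by gene name, and all of them are shown, 11 of 41174, with 3 probes for Aqp4, 2 for Aqp7 and 1 for each of the other genes. Tubules from the kidneys of 4 mice were put in suspension and passed through a COPAS sorter, which sorts objects too large for a cell sorter. From each mouse 3 fractions were hybridised to one-colour arrays, which gave 12 arrays. EGFP+ holds the fluorescent tubules, which the study labels as distal convoluted tubules (DCT), a segment that lies between the thick ascending limb and the connecting tubule. EGFP- holds the tubules without fluorescence, and ALL is the total suspension. Mice 1 and 3 were female and mice 2 and 4 male. Every fraction came from the same animals, so EGFP- and ALL tubules come from EGFP-expressing mice too. The labels give neither the promoter that drives EGFP nor the strain or age of the mice.

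Aquaporins are tetramers in which each subunit forms its own pore, and they let water follow the osmotic gradients that ion transport builds. In the kidney they divide the nephron between them. Aqp1 carries water through the proximal tubule and the thin descending limb, Aqp7 and Aqp11 belong to the proximal tubule, and Aqp2, Aqp3 and Aqp4 form the vasopressin-controlled route through the principal cells of the collecting duct. Aqp6 lies in intracellular vesicles of acid-secreting intercalated cells. The thick ascending limb and the DCT are known as segments that reabsorb salt with little water.

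Levels are log2 processed signals minus the 75th percentile of the same array, so that 0 is an array's upper quartile, and levels of one probe are not set against those of another. The 75th percentile ran from 922 to 2270 signal units over the 12 arrays, and the scanner software called 53.9% to 65.6% of probes well above background. The fraction labels were checked against marker lists. Of 10 DCT markers tested, 10 were higher in EGFP+ than in EGFP- tubules, with a median difference of 4.18, and their summed signal relative to the 75th percentile was 786 to 968 in EGFP+, 161 to 218 in ALL and 50.5 to 78.4 in EGFP- arrays. Of 7 thick ascending limb markers tested, 6 were higher in EGFP+ tubules and 1 lower (median difference 1.85). Over all genes tested, 32.3% were higher and 25.9% lower. The summed signal of 5 thick ascending limb markers was 28.3 to 37.6 in EGFP+ and 40.4 to 48.4 in EGFP- arrays. The part of thick ascending limb tubules in the EGFP+ fraction was not tested. All 11 aquaporin probes passed the filter for testing (at least 4 of the 12 arrays well above background). The arrays are of tubule suspensions, so fewer cells of a type and less RNA per cell cannot be told apart.

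In EGFP+ tubules, 7 of the 8 aquaporins were lower than in EGFP- tubules and 0 were higher. Aqp6 alone among the 8 genes did not pass the test. By probe, 10 of 11 were lower and 0 higher, where 23.9% of the 25819 probes tested were lower and 32.8% higher (56.7% in either direction). Of those 10, the 3 Aqp4 probes and Aqp7 probe 2 were well above background on no EGFP+ array. Aqp7 probe 1 and Aqp8 were so on 1 and 2 of 4 EGFP+ arrays. All of these probes thus reached the filter of 4 arrays only with the other fractions, where they are brighter. Their calls cannot be read against these shares. Among the 19294 probes well above background on all 12 arrays, 5 are aquaporin probes (Aqp1, Aqp2, Aqp3, Aqp6 and Aqp11). Of these, 4 were lower in EGFP+ than in EGFP- tubules, against 19.3% of such probes, and for 4 all EGFP+ levels lay below all EGFP- levels, against 19.4%. Compared with ALL, 10 of 11 aquaporin probes were lower, where 22.9% of all tested probes were lower and 31.1% higher (54% in either direction). The same limit holds there for the Aqp4, Aqp7 and Aqp8 probes. Of the 5 above background on all arrays 4 were lower, against 18.1%, and 4 lay wholly below ALL, against 17.6%. With the dim EGFP+ arrays at the bound defined under Aqp7, the median difference from EGFP- tubules over the 11 probes was -3.73, and the fitted median of all tested probes was 0.14. The comparisons with EGFP- and with ALL share the EGFP+ arrays. Centring the arrays on their medians moved the median difference of all probes from 0.14 to 0.30 for EGFP+ minus EGFP- and from 0.13 to 0.33 for EGFP+ minus ALL. For the latter comparison it moved the calls from 8027 higher and 5904 lower to 10308 higher and 4907 lower, and the aquaporin calls stayed as given.

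**Figure D1:**
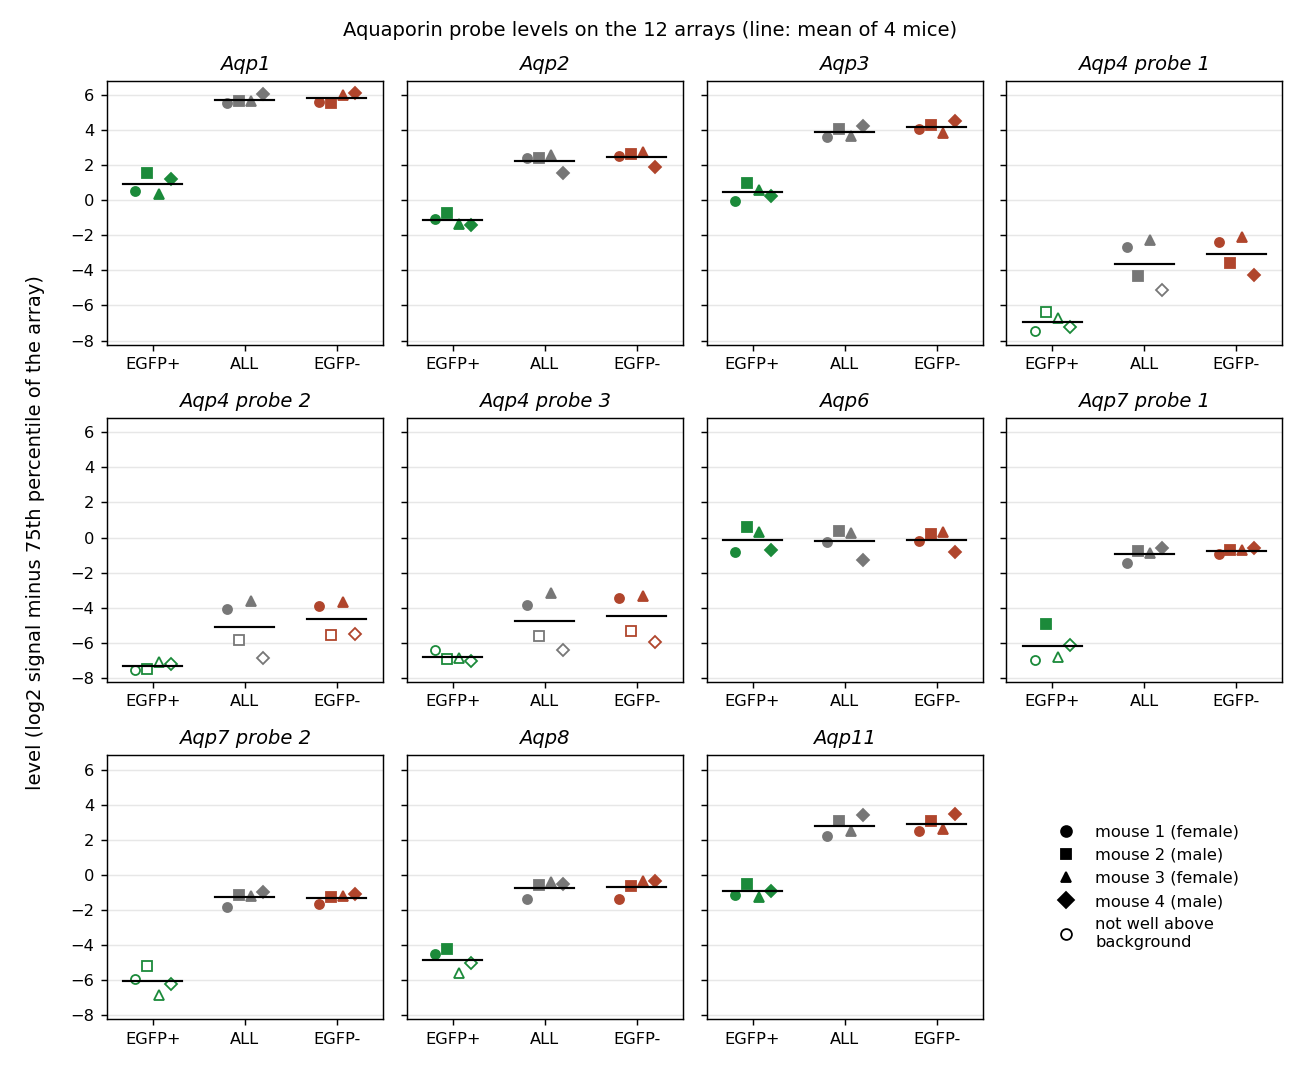
Level of each of the 11 aquaporin probes on the 12 arrays, as log2 signal minus the 75th percentile of the array (y axis), by fraction (x axis), with 1 symbol per mouse and a line at the mean of the 4 mice. Open symbols are arrays where the probe was not well above background. In the panels of Aqp1, Aqp2, Aqp3, Aqp7, Aqp8 and Aqp11 the EGFP+ points lie below all ALL and EGFP- points, in the Aqp6 panel the 3 fractions overlap, and open symbols have no order among themselves.

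Aqp1 is the constitutively open channel of the proximal tubule and thin descending limb, and it is also carried by endothelium and red cells. Its probe lies on chromosome 6 at 55278064-55278123 in mm8, the build of all probe positions given here. In mice 1 to 4, its level was 0.56, 1.58, 0.35 and 1.21 in EGFP+ tubules. The levels were 5.53, 5.69, 5.65 and 6.08 in ALL and 5.63, 5.57, 6.04 and 6.13 in EGFP- tubules. All 12 arrays were well above background, and the highest EGFP+ level lay far below the lowest of the other fractions. Aqp1 was 30.2-fold lower in EGFP+ than in EGFP- tubules (95% confidence interval 20.4 to 44.7, difference -4.92 ± 0.26 SE, limma adjusted p = 2.13e-08) and 28.1-fold lower than in ALL (difference -4.81 ± 0.26 SE).

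Aqp7, an aquaglyceroporin of the proximal straight tubule that passes glycerol as well as water, was measured by 2 probes on the minus strand of chromosome 4. Probe 1 lies at 41222859-41222918 and probe 2 at 41222881-41222940, so they share 38 bases. Within the shared stretch they differ by 1 base, G16A (the base of probe 2 first, counted from 1 at the 5′ end of the windows printed here). These 30-base windows, at chr4:41222887-41222916 in mm8, are shown because the probes are nearly one measurement, with the differing base in capitals.
Aqp7 probe 2: gtagagcttctctttGaccacaaccgtact
Aqp7 probe 1: gtagagcttctctttAaccacaaccgtact

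On probe 1, the EGFP+ levels of Aqp7 were -6.98, -4.96, -6.82 and -6.13 in mice 1 to 4, and only that of mouse 2 was well above background. The levels were -1.43, -0.76, -0.90 and -0.61 in ALL and -0.96, -0.70, -0.73 and -0.62 in EGFP- tubules. The EGFP+ array of mouse 2, the 1 array of 4 that measured the probe, still lay below every array of the other fractions. The fold is therefore a bound for the processed signal, at least 20.9-fold lower in EGFP+ than in EGFP- tubules (limma adjusted p = 1.57e-07) and at least 18.6-fold lower than in ALL. Probe 2 never rose well above background in EGFP+ tubules, with means of -6.08 ± 0.70 (SD, n = 4) in EGFP+ tubules, -1.30 ± 0.37 in ALL and -1.31 ± 0.25 in EGFP- tubules. Its bound is at least 14.9-fold lower than in EGFP- tubules (limma adjusted p = 1.09e-07). For such a bound, each dim array contributes its lowest signal counted as well above background, or the probe's own signal where that is higher, and their mean is set against that of the brighter fraction. Spots above that lowest signal are not always called, as for probe 2 on the EGFP+ array of mouse 2 (-5.23, lowest called level -5.41). The words at least thus refer to this rule and to the processed signal. Against EGFP- tubules the bounds are -4.38 and -3.90 in log2 for probes 1 and 2, and the normexp differences given under Aqp8 lay nearer to 0. The limma adjusted p beside a bound is that of the fitted difference, which uses the EGFP+ signals as measured. Both probes gave the same call.

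Aqp11 lies in the endoplasmic reticulum of proximal tubule cells, and mice without it develop cystic kidneys. It was well above background on all 12 arrays (probe at 97601671-97601730 on chromosome 7). Its EGFP+ levels were -1.16, -0.52, -1.26 and -0.91 in mice 1 to 4. In ALL they were 2.22, 3.03, 2.5 and 3.39, and in EGFP- tubules 2.47, 3.08, 2.59 and 3.48. Both females lay below both males in ALL and again in EGFP- tubules. Aqp11 was 14.6-fold lower in EGFP+ than in EGFP- tubules (interval 9.37 to 22.7, difference -3.87 ± 0.29 SE, limma adjusted p = 3.88e-07).

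Aqp8, a channel found on inner mitochondrial membranes and in intracellular compartments of the proximal tubule and collecting duct, lies at 123259070-123259129 on chromosome 7. Its EGFP+ levels were -4.53, -4.25, -5.64 and -5.05, of which those of mice 1 and 2 were well above background. The ALL levels were -1.40, -0.62, -0.44 and -0.51, and the EGFP- levels were -1.39, -0.62, -0.39 and -0.37. Mouse 1 had the lowest ALL and EGFP- levels but not the lowest EGFP+ level. With the arrays of mice 3 and 4 at their bound, Aqp8 was at least 16.3-fold lower in EGFP+ than in EGFP- tubules (limma adjusted p = 6.33e-07) and at least 15.7-fold lower than in ALL. The size of the fitted difference depended on the background correction for the genes dim in EGFP+ tubules. Their bounds hold for the processed signal only. With normexp in place of the software's processed signal, the difference from EGFP- tubules was -2.0 for Aqp8 (-4.18 with the processed signal), -2.41 for Aqp7 probe 1 (-5.46) and -1.64 for Aqp7 probe 2 (-4.77), all still past the threshold, and -4.95 for Aqp1 and -3.65 for Aqp11.

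Aqp2 is the apical channel of principal cells, which vasopressin moves into the membrane and whose transcription it raises. Its probe spans 977 bases of chromosome 15, at 99410181-99411157, although it is 60 bases long, so it crosses an intron and reads spliced RNA. The probe is shown because it carries all Aqp2 values.
Aqp2 probe: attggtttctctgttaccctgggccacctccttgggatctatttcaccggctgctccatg
The EGFP+ levels of Aqp2 were -1.06, -0.69, -1.35 and -1.43 in mice 1 to 4. In ALL the levels were 2.44, 2.39, 2.61 and 1.55, and in EGFP- tubules 2.52, 2.63, 2.74 and 1.93. Mouse 4 was the lowest mouse in all 3 fractions. Aqp2 was 12-fold lower in EGFP+ than in EGFP- tubules (interval 8.11 to 17.8, difference -3.59 ± 0.26 SE, limma adjusted p = 2.68e-07), and remained well above background on all 4 EGFP+ arrays.

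Aqp3, the basolateral aquaglyceroporin of principal cells, was read by a probe on chromosome 4 at 41281600-41281659, 58.7 kb from the first Aqp7 probe. The 2 genes are next to each other among the protein-coding genes of the RefSeq annotation. The EGFP+ levels of Aqp3 were -0.01, 1.0, 0.57 and 0.23 in mice 1 to 4. Its levels were 3.62, 4.05, 3.66 and 4.22 in ALL and 4.05, 4.28, 3.87 and 4.54 in EGFP- tubules. All EGFP+ values lay below all others, with mouse 2 the highest of the EGFP+ arrays. Aqp3 was 13.3-fold lower in EGFP+ than in EGFP- tubules (interval 9.34 to 18.9, difference -3.73 ± 0.23 SE, limma adjusted p = 7.78e-08).

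Aqp4, the second basolateral channel of principal cells and the main water channel of the brain, was dim. Its 3 probes, all on chromosome 18, did not rise well above background on the 4 EGFP+ arrays. Probe 1 was well above background on 3 of 4 ALL and 4 of 4 EGFP- arrays, and probes 2 and 3 on 2 of 4 in both fractions. On probe 1, the EGFP+ levels were -7.46, -6.35, -6.73 and -7.21 in mice 1 to 4. The levels were -2.69, -4.34, -2.29 and -5.14 in ALL and -2.37, -3.58, -2.07 and -4.27 in EGFP- tubules. Females were above males on that probe in both fractions.

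Relative to EGFP- tubules, the processed signal of Aqp4 was at least 4.53-fold lower in EGFP+ tubules on probe 1. With the EGFP+ arrays at their bound, the fold was 1.5 on probe 2 and 1.67 on probe 3. Their EGFP- means take in the male arrays, which were not well above background, so neither is a strict lower bound. Compared with ALL the folds were 3.12, 1.10 and 1.39, and each ALL mean takes in at least 1 array not well above background. The calls against EGFP- tubules rest on fitted differences, with EGFP+ levels not above background (limma adjusted p = 0.000300, 0.00487 and 0.0191). Aqp4 calls were the least stable of the family. With normexp, none of the 3 probes passed against EGFP- tubules: the difference was -0.49 on probe 1 (adjusted p = 0.447), 0.30 on probe 2 (adjusted p = 0.640) and 0.36 on probe 3 (adjusted p = 0.545). Against ALL it ended all 3 calls too, with -0.78, -0.34 and -0.41 (adjusted p = 0.320, 0.713 and 0.608). Probe 3 also lost its call against EGFP- without mouse 1 (adjusted p = 0.0798) or without mouse 3 (adjusted p = 0.0671). Against ALL, probe 2 lost it without mouse 1 (adjusted p = 0.0934) or mouse 3 (adjusted p = 0.0594). Against ALL, probe 3 lost it without mouse 1 (adjusted p = 0.113), mouse 2 (adjusted p = 0.0753), mouse 3 (adjusted p = 0.142) or the EGFP+ array of mouse 2 (adjusted p = 0.0689), and when dim probes were kept in the fit (adjusted p = 0.0568).

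**Figure D2:**
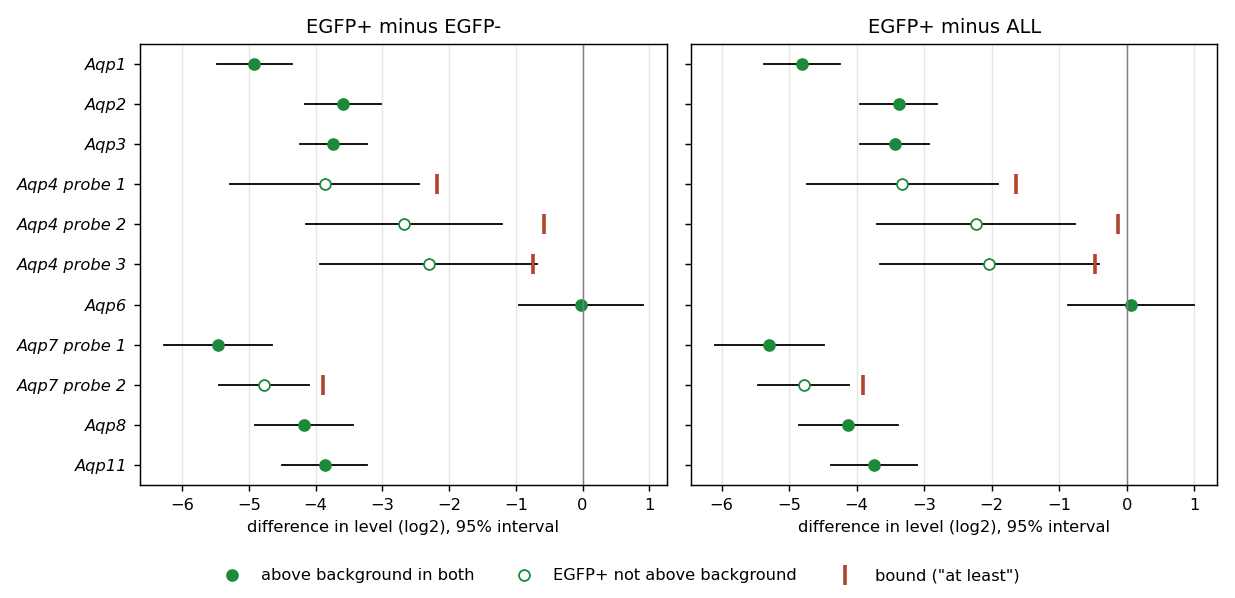
Difference in level of each aquaporin probe (log2, x axis) for EGFP+ minus EGFP- (left) and EGFP+ minus ALL (right), with 95% confidence intervals from the limma fit over 12 arrays. Open symbols are probes well above background on no EGFP+ array, and the upright bars give the bound for those, which lies nearer to 0 than the fitted difference; Aqp7 probe 1 and Aqp8 were above it on 1 and 2 of 4 EGFP+ arrays. Only the Aqp6 interval spans 0.

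Aqp6 stood apart from the other 7 genes. It is a channel of vesicles in type A intercalated cells that conducts anions at low pH. Its probe, at 99432976-99433035 on chromosome 15, was well above background on all 12 arrays. The levels in mice 1 to 4 were -0.82, 0.59, 0.31 and -0.73 in EGFP+ tubules. They were -0.25, 0.36, 0.28 and -1.26 in ALL and -0.21, 0.18, 0.32 and -0.83 in EGFP- tubules. All 3 fractions overlapped. The difference between EGFP+ and EGFP- was -0.03 ± 0.43 SE (limma adjusted p = 0.963), with an interval from -0.96 to 0.90, so that a change of up to 1.94-fold down or 1.87-fold up lies within it. With the mouse as a block the interval narrowed to -0.44 to 0.38 (limma adjusted p = 0.905).

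Aqp6 differed between mice more than between fractions. Its mean over the 3 fractions was -0.43, 0.38, 0.30 and -0.94 in mice 1 to 4, and within a mouse the fractions spanned 0.61, 0.41, 0.04 and 0.54. Among 16617 genes with values on all arrays, those most like Aqp6 over the 12 arrays, which share 4 mice, were Moxd1 (Pearson r = 0.913), Serpinb9 (r = 0.902) and Slc4a1 (r = 0.889). Slc4a1, the basolateral anion exchanger of type A intercalated cells and of red cells, had means of 1.76, 2.60, 2.21 and 1.66 in mice 1 to 4. Both genes were higher in mice 2 and 3 than in mice 1 and 4. Slc4a1 was picked for its correlation with Aqp6 over these same arrays, so the shared order is no separate result. Slc4a1 itself gave a difference of 0.22 ± 0.31 SE between EGFP+ and EGFP- tubules (limma adjusted p = 0.575). Hbb-bt and Hba-a1, the globin genes among the red cell markers, were 54.3-fold and 43.4-fold lower in EGFP+ tubules. The cell source of the Slc4a1 and Aqp6 signals was not tested.

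**Figure D3:**
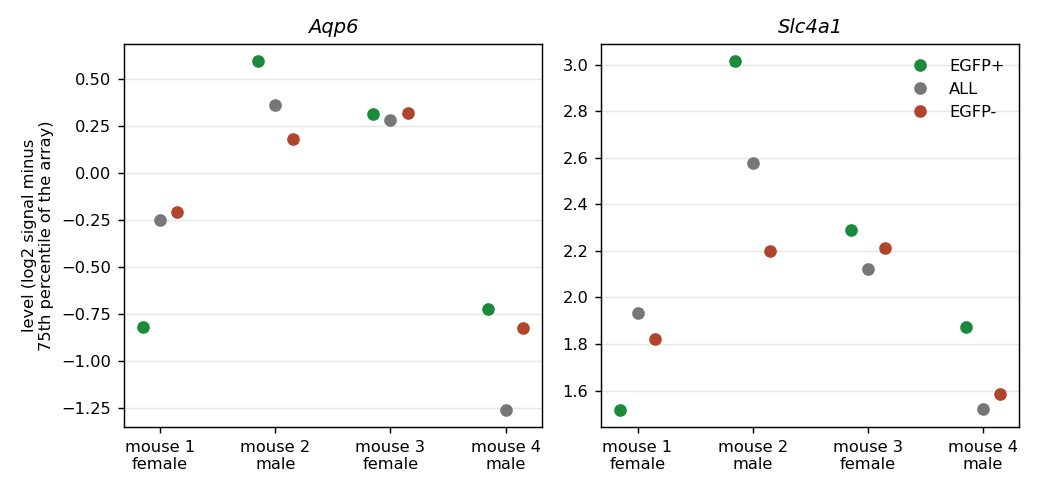
Levels of Aqp6 (left) and Slc4a1 (right), as log2 signal minus the 75th percentile of the array (y axis), for the 3 fractions of each mouse (x axis). For both genes all points of mice 2 and 3 lie above those of mice 1 and 4, and the y axes of the panels differ. Slc4a1 was picked for its correlation with Aqp6 over the same arrays.

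Aqp2, Aqp5 and Aqp6 follow each other on chromosome 15 with no other protein-coding gene between them in the RefSeq annotation. The Aqp2 and Aqp6 probes are 22.3 kb apart in mm8, yet the intervals for EGFP+ minus EGFP- did not overlap, with -4.15 to -3.02 for Aqp2 and -0.96 to 0.90 for Aqp6. The 250 bases before the start of each gene are shown because these neighbours behaved differently, from RefSeq on GRCm38.p6, plus strand, at chr15:99578806-99579055 for Aqp2 and chr15:99600950-99601199 for Aqp6. RefSeq promoter entries matched 7 of the 8 genes by symbol. Capitals mark matches on either strand to TGACG (the cAMP response element half-site), AGATAA (bound by GATA factors) and CACGTG (an E-box), which do not overlap one another.
Aqp2 upstream: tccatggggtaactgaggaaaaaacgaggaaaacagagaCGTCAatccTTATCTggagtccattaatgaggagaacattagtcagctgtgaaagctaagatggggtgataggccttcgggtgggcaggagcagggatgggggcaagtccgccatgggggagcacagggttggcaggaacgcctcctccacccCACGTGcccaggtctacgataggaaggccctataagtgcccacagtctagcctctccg
Aqp6 upstream: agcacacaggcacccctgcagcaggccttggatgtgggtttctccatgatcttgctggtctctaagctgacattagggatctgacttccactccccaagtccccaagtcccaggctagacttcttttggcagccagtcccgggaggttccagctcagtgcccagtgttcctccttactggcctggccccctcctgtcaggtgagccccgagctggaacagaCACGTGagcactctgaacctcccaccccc
The Aqp2 window held all 3 motifs, with first bases at -211, -202 and -58 from the start, and the Aqp6 window held the E-box at -29. Among 32851 RefSeq promoters, windows of the same 250 bases held TGACG in 17.8%, AGATAA in 9.99% and CACGTG in 6.02%. These matches describe letters only.

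Between the total and the EGFP- fraction, 0 of 11 aquaporin probes passed limma's test, where 1.08% of all tested probes did. By unadjusted p below 0.05 the counts were 0 of 11 and 3.66% of all tested probes. Differences ran from -0.54 (Aqp4 probe 1) to 0.02 (Aqp7 probe 2), and 0 of 11 probes had levels that separated the 2 fractions (2.56% of all tested probes did). Aqp1 differed by -0.10 ± 0.26 SE, with an interval from -0.67 to 0.46. For Aqp2 the interval was -0.78 to 0.36 and for Aqp3 -0.80 to 0.21. Aqp2, Aqp3, Aqp11 and Aqp4 probe 1 were slightly lower in ALL than in EGFP- tubules of 4 of 4 mice. They are named for that common sign, and its share over all probes was not counted. With the mouse as a block, all their intervals included 0 (-0.57 to 0.15, -0.71 to 0.12, -0.46 to 0.23 and -1.60 to 0.52). For Aqp4 probe 1, the ALL array of mouse 4 was not well above background.

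Arrays of more than 1 fraction lay on each of the 3 slides, and the EGFP+ minus EGFP- difference was taken within each. The slides mix mice: EGFP+ of mice 1 and 2 against EGFP- of mouse 1 on slide 1, mouse 3 against mouse 2 on slide 2, and mouse 4 against mice 3 and 4 on slide 3. Slides 1, 2 and 3 gave -4.56, -5.22 and -4.87 for Aqp1, and -3.40, -3.98 and -3.76 for Aqp2. Aqp3 gave -3.55, -3.71 and -3.97, and Aqp11 -3.30, -4.34 and -3.95. Aqp7, Aqp8 and Aqp4 probe 1 were lower in EGFP+ tubules on each slide as well, with sizes that rest on arrays not above background. For Aqp4 probes 2 and 3, neither the EGFP+ nor the EGFP- array of slide 2 was well above background, so no direction is given there. Aqp6 gave 0.09, 0.13 and -0.47, with no common sign. Within mice 1 to 4 its difference was -0.61, 0.41, -0.01 and 0.10, so the slide 3 value comes from the EGFP- array of mouse 3.

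The signal left in EGFP+ tubules was next expressed as a percent of that in EGFP- tubules of the same mouse. For Aqp1 it was 2.97%, 6.30%, 1.93% and 3.31% in mice 1 to 4. Aqp2 kept 8.38%, 9.996%, 5.87% and 9.75%, Aqp3 6.02%, 10.3%, 10.2% and 5.07%, and Aqp11 8.11%, 8.26%, 6.92% and 4.77%. Aqp1 was thus below Aqp2, Aqp3 and Aqp11 in each of the 4 mice. Mouse 2 had the highest share for Aqp1, Aqp2, Aqp3 and Aqp11, by a narrow margin for the last 3. For Aqp8 mouse 1 was higher (11.3%) than mouse 2 (8.06%), both with EGFP+ arrays well above background. On the same scale the median of the 17 proximal tubule markers well above background on all 4 EGFP- arrays was 2.16%, 5.16%, 2.15% and 3.41%. Of 24 such markers tested, 23 were lower in EGFP+ tubules and none was higher, with a median difference of -4.94, and their summed relative signal was 3.43 to 9.24 in EGFP+ and 185 to 207 in EGFP- arrays (summed over the 10 genes with no spot left out on any of the 12 arrays). Mouse 2 was the highest mouse for that list too, and also for the endothelial and intercalated cell lists given below, so this order is not particular to proximal tubule markers. Its cause was not tested.

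Other lists bear on cells that share these channels. Beside their counts, 32.3% of all genes tested were higher in EGFP+ than in EGFP- tubules and 25.9% lower (58.2% in either direction). Principal cell markers kept a median of 29.5%, 35.6%, 57.3% and 59.4% in mice 1 to 4. Of 11 tested, 7 were lower and 4 higher in EGFP+ tubules, with a median difference of -1.15 and a summed relative signal of 31.8 to 35.9 in EGFP+ and 22.3 to 29.0 in EGFP- arrays. The lower ones included Fxyd4, a sodium pump regulator of the collecting duct (20.2-fold), and the vasopressin receptor Avpr2 (4.46-fold). Gata3, a transcription factor of the distal nephron and collecting duct (2.95-fold), and the sodium channel subunits Scnn1b (2.06-fold) and Scnn1g (1.57-fold) were among the higher ones. These 5 were chosen after their values were seen.

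Intercalated cell markers kept 49.8%, 87.4%, 71.4% and 79.6%, with 6 of 13 lower, 4 higher and 3 that did not pass, and a summed relative signal of 86.2 to 105 in EGFP+ and 117 to 144 in EGFP- arrays. Endothelial markers, from cells that carry Aqp1, kept 8.43%, 14.1%, 8.06% and 10.3%, with 9 of 10 lower and a summed relative signal of 6.09 to 8.40 in EGFP+ and 60.6 to 99.8 in EGFP- arrays. Of the 3 red cell markers tested, all were lower and kept 1.66% to 2.87%. Alas2, which defines erythroid cells, did not rise well above background on the 4 EGFP+ arrays. Thin descending limb markers, the other site of Aqp1, had 3 of 6 lower and 0 higher, with a median difference of -0.54. The part of these cells in the aquaporin values was not tested.

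**Figure D4:**
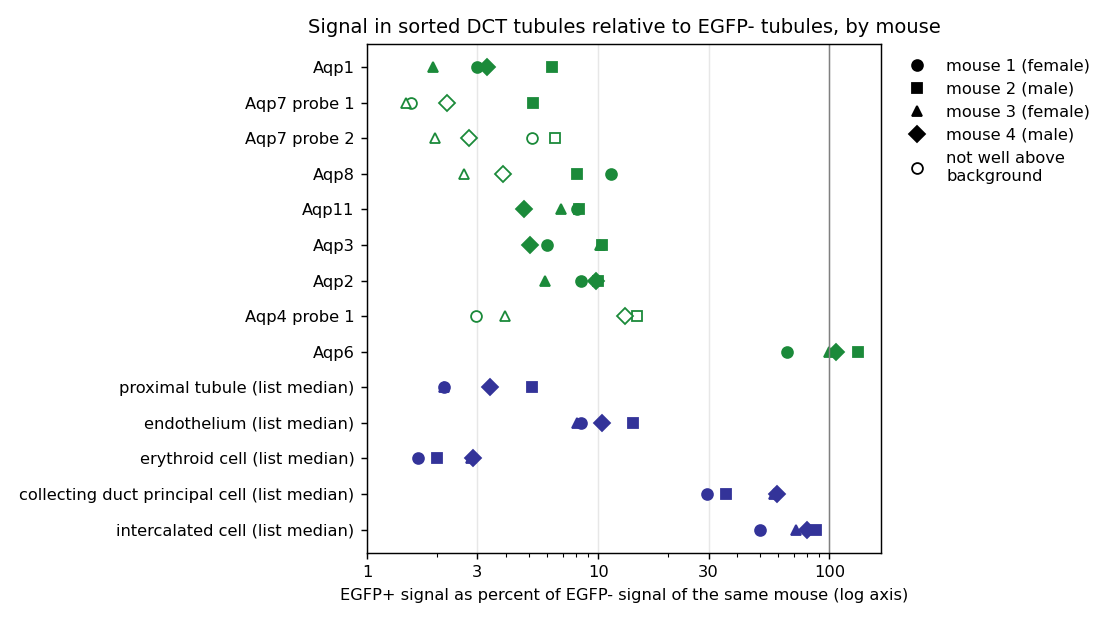
Signal in EGFP+ tubules as a percent of the signal in EGFP- tubules of the same mouse (x axis, log scale) for 9 aquaporin probes and for the medians of 5 marker lists, with 1 symbol per mouse; open symbols are EGFP+ arrays not well above background. Aqp1 and the proximal tubule list both lie between 1.93% and 6.30% with mouse 2 highest, and Aqp6 lies between 65.4% and 133%. Mouse 2 is also highest for the endothelium and intercalated cell lists, and mouse 1 for Aqp8.

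The machinery that vasopressin uses to place Aqp2 in the membrane was followed with a list of 48 genes, 46 of them tested. In EGFP+ against EGFP- tubules 15 were higher and 19 lower, and 12 did not pass, where 32.3% of all genes tested were higher and 25.9% lower (58.2% in either direction). The list's median difference was -0.04. Prkar2b, Adcy3 and Avpr2 had the largest fitted differences, of which the first and second rest on EGFP+ arrays not above background. Prkar2b, a regulatory subunit of protein kinase A, was at least 7.33-fold lower, and Adcy3, an adenylyl cyclase, was at least 1.22-fold lower. Avpr2, the V2 receptor itself, was 4.46-fold lower (difference -2.16 ± 0.16 SE, limma adjusted p = 3.66e-07) and well above background on 4 of 4 EGFP+ arrays. On the other side, Adcy6, the adenylyl cyclase that the V2 receptor mainly uses, was 3.76-fold higher, and the vesicle protein Vamp2 was 2.25-fold higher; both were picked after their values were seen.

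Of 11 listed genes of the hypertonicity response and urea transport, 9 were tested, with 3 higher, 2 lower and 4 that did not pass (median difference -0.04). These counts are near the shares over all genes tested, 32.3% higher and 25.9% lower (58.2% in either direction). Slc6a6, the taurine transporter, was 12.4-fold lower, while Slc5a3, the myo-inositol transporter, was 11.4-fold higher, and the chaperone gene Hspa4l was 1.76-fold higher. Glycerol, which Aqp3 and Aqp7 carry, is used through a list of 9 genes, of which 8 were tested, with 3 higher, 3 lower and 2 that did not pass (median 0.25). The glycerol counts were not tested against the same shares. Gk, the glycerol kinase, was 31.2-fold lower and Gpd1, the cytosolic glycerol-3-phosphate dehydrogenase, 10.6-fold lower in EGFP+ tubules. Mgll, the monoglyceride lipase that releases glycerol, was 4.20-fold higher.

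Of the remaining mouse aquaporins with probes, Mip, Aqp12 and the 3 Aqp9 probes never rose well above background on the 12 arrays. Aqp5, the channel of salivary and lacrimal glands that lies between Aqp2 and Aqp6, had EGFP+ levels of -4.09, -4.94, -1.21 and -4.92 in mice 1 to 4. The ALL levels were -4.97, -5.27, -4.57 and -3.81, and the EGFP- levels -4.75, -5.22, -5.15 and -5.20. The EGFP+ array of mouse 3 was the highest of the 12, of which 8 were well above background, and the difference of 1.29 ± 0.69 SE did not pass (limma adjusted p = 0.131).

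Over the 12 arrays, which share 4 mice and 3 fractions, look-alikes were sought for members with a probe well above background on at least 8 arrays, which leaves out Aqp4. The genes most like Aqp1 were Slc6a18, Crym and Hgd (r = 0.999, 0.999 and 0.999), for Aqp7 probe 1 Dpep1, Slc2a2 and Vil1 (r = 0.998, 0.998 and 0.998), and for Aqp11 Gpr137b, Pcx and Cyba (r = 0.999, 0.998 and 0.998). Aqp2 was most like Mmp17, Sparc and Ighm (r = 0.998, 0.998 and 0.998), and Aqp3 most like Plin5 and Mfsd1 (r = 0.996 and 0.996). For Aqp8 they were Arhgap22, Agap1 and Gm2a (r = 0.993, 0.992 and 0.992). Each of these 6 members had between 1077 and 1481 genes with r over 0.95, and Aqp6 had 0. Any gene low in EGFP+ tubules correlates with these 6, so the counts restate their fraction difference and are no separate result. Slc6a18, Dpep1, Slc2a2 and Vil1 are known brush border or transport genes of the proximal tubule, and Sparc and Ighm are known from stromal and B cells. The sites of the other look-alikes are not given.

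Sex was compared over 2 male and 2 female mice, with each mouse's 3 fractions averaged. By limma, 0 of 11 probes passed (0.956% of 25310 probes did), although 8 of 11 had an unadjusted p below 0.05, where 19.1% of all tested probes did. The 8 are the probes of Aqp1, Aqp3 and Aqp11, the 3 of Aqp4 and the 2 overlapping ones of Aqp7. Fitted levels were lower in males for Aqp4 and higher for the others. The mouse means of Aqp7 take in EGFP+ arrays mostly not well above background, so no size is given for it. The Aqp4 probes had adjusted p of 0.193, 0.0697 and 0.0588. No EGFP+ array measured them, and probes 2 and 3 were well above background on the female ALL and EGFP- arrays but on no male array, so the size of a difference is not given. The ALL levels of probe 3 were -3.87 and -3.18 in females and -5.63 and -6.44 in males, the latter not well above background. With arrays centred on their medians probes 2 and 3 passed (limma adjusted p = 0.0187 and 0.00610), whereas with normexp they did not (adjusted p = 0.783 and 0.930).

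After Aqp4 probes 2 and 3, Aqp11 had the lowest unadjusted p, with a male minus female difference of 0.70 ± 0.13 SE (limma adjusted p = 0.119, and 0.0310 with normexp). Both males lay above both females. Normexp called 4263 of all probes higher and 422 lower in males, against 185 and 57 in the main fit. Aqp1 (0.42) and Aqp3 (0.43) had positive differences with adjusted p of 0.231 and 0.217. The EGFP+ minus EGFP- difference of each mouse was then compared between the sexes, 2 against 2. By limma, 0 of 11 probes passed, and 0 of all 25575 probes (2917 of them, or 11.4%, and 3 of the 11 had an unadjusted p below 0.05). The 3 were the Aqp4 probes (limma adjusted p = 0.182, 0.196 and 0.242), where the EGFP+ arrays of both sexes were not above background.

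**Figure D5:**
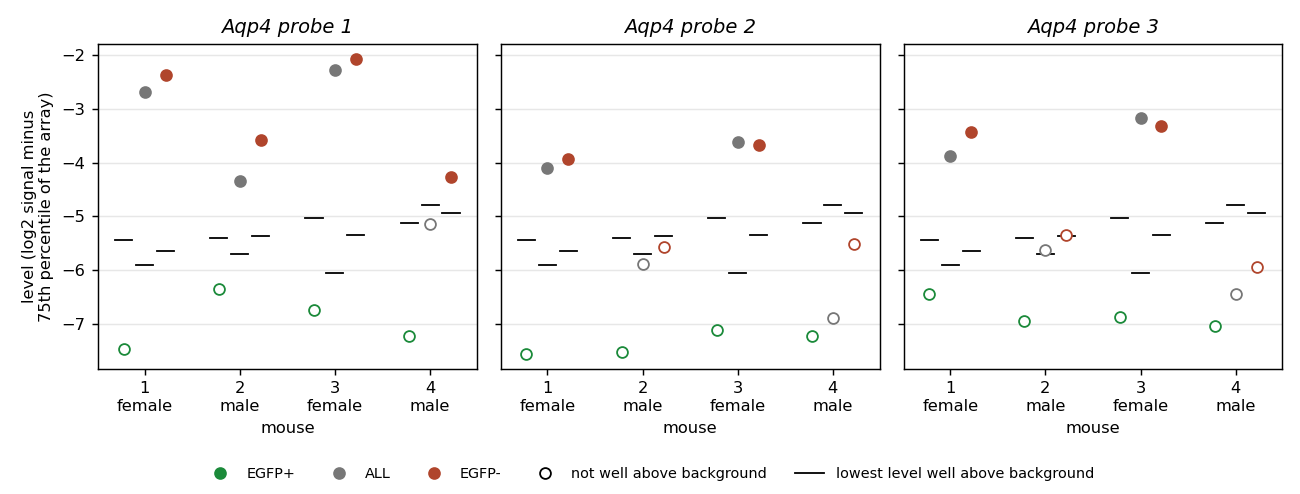
Levels of the 3 Aqp4 probes, as log2 signal minus the 75th percentile of the array (y axis), in the fractions of each mouse (x axis, with sex). Open symbols are not well above background, and short lines give each array's lowest level that was. In ALL and EGFP- tubules the points of female mice 1 and 3 lie above those of male mice 2 and 4, which are open for probes 2 and 3, and all EGFP+ points are open.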

How the data were processed

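RNA of 12 samples (3 fractions of 4 mice) was measured on one-colour Agilent arrays of design 014868. Per the file headers, the deposited values are the processed signal of each spot, a linear intensity already background-corrected by Feature Extraction 9.5.3.1, beside its mean and local background intensities. Each array's log2 processed signal had its 75th percentile over non-control probes subtracted. Outlier-marked spots were left out, spots of a probe averaged, and 25819 probes well above background on at least 4 arrays tested with limma 3.58.1 in R 4.3.3 (1 coefficient per fraction, all 12 arrays, Benjamini-Hochberg over all tested probes, threshold 0.05). The fit was tested on simulated data. Probes are named as in the files. Where a list gene had several probes, the brightest tested one stood for it. A deposited value table was not used, because its columns are shifted between fractions. Array number limits the precision.

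Same-numbered samples come from the same mouse, per the labels, and deviations from the fraction means correlated at 0.23 to 0.81 in all 12 same-mouse pairs. The members and lists were chosen with earlier results of these data known. Named list genes are the 3 with the largest EGFP+ minus EGFP- difference past the threshold, and named look-alikes the 3 with the highest correlation, of which 1 is not reported here; other list genes named were chosen after their values were seen. Mouse, slide, scaling, background correction, filters, outlier spots and left-out mice were varied. Figures were drawn with matplotlib. No annotation of mm8 was used, so exons and UTRs of probes are not given.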

Additional observations from a re-analysis of the deposited data

How the results depend on the processing

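Over 608 recomputed aquaporin values, 590 kept their direction, or did not pass in either case, and their side of the threshold; 13 lost their call, 3 gained one and 2 reversed. The lost and gained calls are those of Aqp4, and for sex also that of Aqp11, given in the report. Only normexp reversed a value, to 0.30 for Aqp4 probe 2 and 0.36 for Aqp4 probe 3 (EGFP+ minus EGFP-), and the cause was not tested. Among counts of all probes, normexp gave 7859 for EGFP+ against ALL (main 13931), 184 for ALL against EGFP- (main 279) and 4685 for sex (main 242). ALL against EGFP- gave 153 with those fractions alone and 103 to 330 with 1 mouse left out. By sex, median centring gave 704 and no filter 50, and the interaction with sex gave 11 with quantile normalization and 18 with median centring (main 0). With the mouse as a replicate block, 16627 probes were called for EGFP+ against EGFP- (main 14631), 16077 for EGFP+ against ALL and 398 for ALL against EGFP-, and no aquaporin call changed. With 4 mice, 2 of each sex, and Aqp4, Aqp7 and Aqp8 at or near background in EGFP+ tubules, the sizes of those drops and sex differences are the least certain values.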
